A study of Homo sapiens with 6 samples.

Results

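Where the ends of neighbouring protein-coding genes lie close together, 1 peak of G-quadruplex (G4) signal can sit at the ends of 2 or more genes at once, and these gene-pair peaks are described here. U2OS cells, a human osteosarcoma line, formed an untreated group (Ctrl) and a group given 1,6-hexanediol (HD), a small diol used to disperse condensates held together by weak contacts. Chromatin was immunoprecipitated with BG4, an antibody directed at G4s, and sequenced (ChIP-seq), with 2 ChIP libraries and 1 input library for each condition, 6 libraries in all. The sources used here do not give the dose of hexanediol or the time of treatment. The question is whether dispersing condensates alters where BG4 binds chromatin. A peak was kept when it touched windows of 1 kb either side of an end of 2 or more different protein-coding genes (RefSeq, hg38), on chromosomes 1 to 22 and X and outside an interval of 270 kb that starts at position 8200000 of chromosome 21. The rule kept 390 of 3335 peaks in the Ctrl list (11.7%) and 287 of 2135 in the HD list (13.4%), 677 of 5470 in all. Overlapping peaks of the 2 lists were joined, which gave 496 loci.

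One peak list per condition was analysed, so values carry no error between libraries, and differences between Ctrl and HD could not be set against it. In the tests below the units are peaks or gene pairs. The names of all 2269 deposited HD peaks include the number 1 of the first replicate, and the sources used here do not say whether 1 or both libraries entered that list. For each summit, the ChIP fragments that cover it were recovered as a number from the fold enrichment and p-value that the peak caller gave. The genome-wide mean was 3.74 fragments per position in Ctrl and 5.51 in HD, so the HD track was 1.47 times as deep. A level is given as the fragments over a summit divided by this mean, and equal fragment numbers are therefore a lower level in HD. A level takes no account of the local background at a site. Intervals on shares and fragment numbers are exact 95% binomial and Poisson intervals and cover counting error only.

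G4s form where a guanine-rich strand folds back on itself into stacked planes of 4 guanines, and in cells they are mapped mostly at the nucleosome-poor starts of active genes. Neighbouring genes can be divergent, with their starts facing each other and often sharing 1 promoter. They can be tandem, with the end of one before the start of the next, or convergent, with their 3′ ends facing each other. Divergent promoters are known to be common at housekeeping genes, among them genes of DNA repair, mitochondria and protein folding, and most are rich in CpG and lack a TATA box.

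The DNA between the start sites of divergent pairs is shown for 8 loci, because most summits at such pairs lay there. Each sequence is the whole stretch between the gene spans, on the plus strand of GRCh38.p14 (hg38), and was taken from RefSeq promoter sequences. Capitals mark a G4 motif, defined as 4 runs of at least 3 G separated by loops of 1 to 7 bases of any kind, or its complement in C. A locus in both lists with the motif is MMS19/UBTD1 (chr10:97498795-97498923). Another is PSME2/RNF31 (chr14:24146611-24146874), with a motif on each strand; only its HD peak covers this stretch. Of loci in the Ctrl list only, NAT9/SLC38A12 (chr17:74776346-74776498) and TCP1/MRPL18 (chr6:159789603-159789811) carry it in C, with the summit of TCP1/MRPL18 23 bp inside TCP1. RPL36AL/MGAT2 (chr14:49620627-49620798), a locus in the HD list only, carries it in G. The stretches of HSPD1/HSPE1 (chr2:197500275-197500378, HD only), TK1/AFMID (chr17:78187205-78187361, both lists) and IFT20/TNFAIP1 (chr17:28335473-28335760, both lists) hold no match, although each has runs of G. The HD summit of HSPD1/HSPE1 lay inside HSPD1 and the Ctrl summit of TK1/AFMID inside TK1, outside the printed stretches.
MMS19/UBTD1: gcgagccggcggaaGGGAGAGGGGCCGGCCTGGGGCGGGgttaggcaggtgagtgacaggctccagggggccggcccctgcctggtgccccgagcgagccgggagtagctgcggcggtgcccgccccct
PSME2/RNF31: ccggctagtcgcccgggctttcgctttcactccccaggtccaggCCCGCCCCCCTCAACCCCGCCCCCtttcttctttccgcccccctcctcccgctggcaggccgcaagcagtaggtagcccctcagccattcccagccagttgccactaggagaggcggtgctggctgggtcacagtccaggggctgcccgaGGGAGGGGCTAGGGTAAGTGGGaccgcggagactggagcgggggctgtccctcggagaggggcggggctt
NAT9/SLC38A12: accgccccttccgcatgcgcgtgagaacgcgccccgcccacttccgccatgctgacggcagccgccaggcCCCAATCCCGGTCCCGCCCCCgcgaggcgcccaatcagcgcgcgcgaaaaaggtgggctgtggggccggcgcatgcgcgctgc
TCP1/MRPL18: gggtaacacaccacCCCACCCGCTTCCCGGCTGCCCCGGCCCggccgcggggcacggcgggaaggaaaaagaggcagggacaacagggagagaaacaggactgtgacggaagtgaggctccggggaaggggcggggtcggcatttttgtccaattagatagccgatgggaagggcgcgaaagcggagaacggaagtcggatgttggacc
RPL36AL/MGAT2: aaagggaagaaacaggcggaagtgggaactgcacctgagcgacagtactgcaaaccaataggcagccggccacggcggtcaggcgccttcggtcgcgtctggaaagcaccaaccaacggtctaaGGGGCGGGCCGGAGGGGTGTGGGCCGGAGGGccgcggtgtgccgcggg
HSPD1/HSPE1: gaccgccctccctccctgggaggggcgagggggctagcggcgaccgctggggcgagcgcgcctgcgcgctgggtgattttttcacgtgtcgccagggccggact
TK1/AFMID: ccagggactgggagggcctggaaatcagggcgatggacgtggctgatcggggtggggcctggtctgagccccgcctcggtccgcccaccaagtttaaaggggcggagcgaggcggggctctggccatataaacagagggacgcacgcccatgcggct
IFT20/TNFAIP1: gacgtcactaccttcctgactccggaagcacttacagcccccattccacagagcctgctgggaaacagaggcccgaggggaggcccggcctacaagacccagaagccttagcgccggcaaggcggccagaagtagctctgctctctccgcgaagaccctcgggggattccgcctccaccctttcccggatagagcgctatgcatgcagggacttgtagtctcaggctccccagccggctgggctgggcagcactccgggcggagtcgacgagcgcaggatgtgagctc

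Starts that face each other carried most of the gene-pair peaks. Both strands were known for 383 of 496 loci, and 300 of these were divergent, 54 tandem and 4 convergent. Of the other 25, 19 had 2 starts on the same strand, 5 had the start of one gene at the end of another on the opposite strand, and 1 had shared 3′ ends. The annotation held 1199 divergent, 840 tandem and 921 convergent pairs of coding genes with ends no more than 2 kb apart. Over these 3 kinds, 10.0% of pairs carried a Ctrl gene-pair peak and 7.33% an HD one. Among divergent pairs, 241 carried a Ctrl peak (20.1%, 17.9 to 22.5) and 174 an HD peak (14.5%, 12.6 to 16.6). With both lists limited to their 2135 peaks of highest −log10 q, the divergent shares were 14.2% in Ctrl and 14.5% in HD. Among tandem pairs the numbers in the full lists were 51 (6.07%, 4.55 to 7.91) and 39 (4.64%, 3.32 to 6.29). Of the convergent pairs, 4 carried a peak in each list (0.434%, 0.118 to 1.11). Divergent pairs exceeded tandem pairs by 14 percentage points in Ctrl (odds ratio 3.89, 2.82 to 5.45, two-sided Fisher's exact test, adjusted p = 2.03e-20) and by 9.87 points in HD (odds ratio 3.49, 2.42 to 5.13, adjusted p = 7.64e-14). They exceeded convergent pairs by 19.7 points in Ctrl (odds ratio 57.7, 22.1 to 214, Fisher's exact test, adjusted p = 1.07e-57) and by 14.1 points in HD (odds ratio 38.9, 14.8 to 145, adjusted p = 1.15e-39), with the Benjamini-Hochberg adjustment over these 4 tests. The ends of divergent pairs also lay closer together, with a median of 233 bp against 909 bp for tandem and 534 bp for convergent pairs. Among pairs with ends no more than 500 bp apart, the Ctrl shares were 21.1% for divergent, 8.84% for tandem and 0.679% for convergent pairs, and the HD shares were 14.8%, 7.23% and 0.679%. Expression, chromatin state and base composition of the pairs were not matched, and their part in the difference was not tested. A divergent pair has 2 starts, a tandem pair 1 and a convergent pair none. In Ctrl, 9.11% of lone starts but 0.194% of lone 3′ ends had a peak, as described below. The tests thus compare pairs with unlike numbers of starts, and orientation apart from that number was not tested.

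Coding starts that stand alone gave a scale for these shares. A lone start, with no other coding end within 2 kb, had a peak in its window of 1 kb at 1090 of 11959 sites in Ctrl (9.11%, 8.60 to 9.64) and at 792 in HD (6.62%, 6.18 to 7.08). A divergent pair has 2 starts, and by arithmetic at least 1 of 2 separate lone starts would carry a peak in 17.4% of cases in Ctrl and 12.8% in HD. A peak at either start was found at 253 of 1199 divergent pairs in Ctrl (21.1%, 18.8 to 23.5) and at 190 in HD (15.8%, 13.8 to 18.0). Lone 3′ ends were marked at 24 of 12343 sites in Ctrl (0.194%) and at 26 in HD (0.211%). Tandem pairs, which have 1 start, carried a gene-pair peak at 8.84% in Ctrl and 7.23% in HD where the ends were no more than 500 bp apart.

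**Figure D1:**
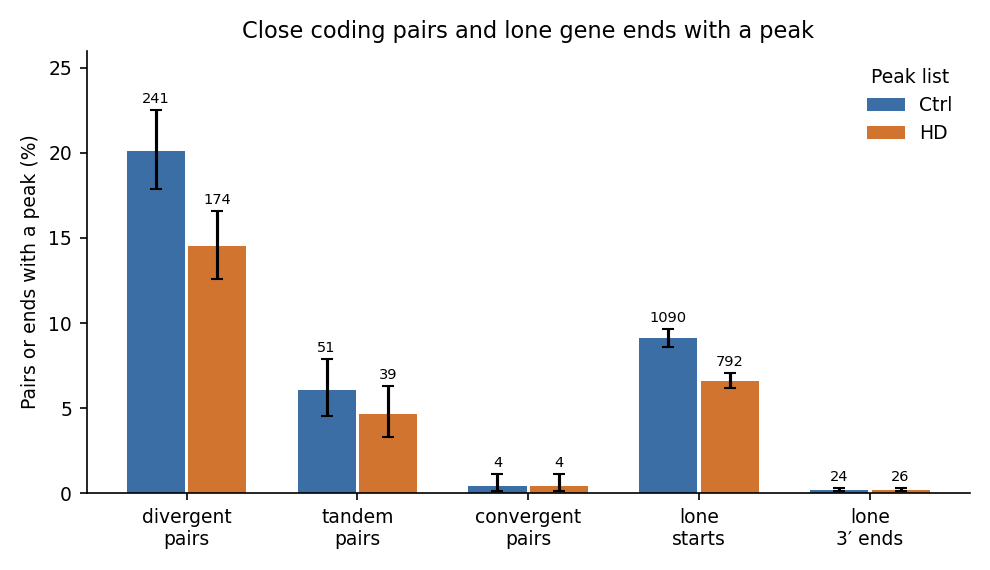
Share of close coding pairs with a gene-pair peak, by orientation, and share of lone starts and lone 3′ ends with a peak (vertical axis, percent), for the Ctrl (blue) and HD (orange) lists. Error bars are exact 95% binomial intervals and the numbers above them count marked pairs or ends; divergent pairs reach 20.1% in Ctrl and 14.5% in HD, and convergent pairs 0.434% in both.

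The summits lay close to the starts, and mostly in the stretch between them. The nearest gene end was a median of 90 bp from the summit in Ctrl and 105 bp in HD, and the end of the other gene of the pair 262 bp and 289 bp. At divergent pairs whose spans do not overlap, the summit was between the starts for 146 of 179 Ctrl peaks (81.6%) and 111 of 131 HD peaks (84.7%). The distance between those starts had a median of 221 bp and 243 bp. Tandem pairs were one-sided: the summit was nearer to the start of one gene than to the end of the other for 35 of 41 Ctrl peaks (85.4%) and 28 of 31 HD peaks (90.3%). Their median distance was 133 bp to the start against 619 bp to the end in Ctrl, and 137 bp against 683 bp in HD. For peaks found in both lists, the Ctrl and HD summits were a median of 48 bp apart.

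**Figure D2:**
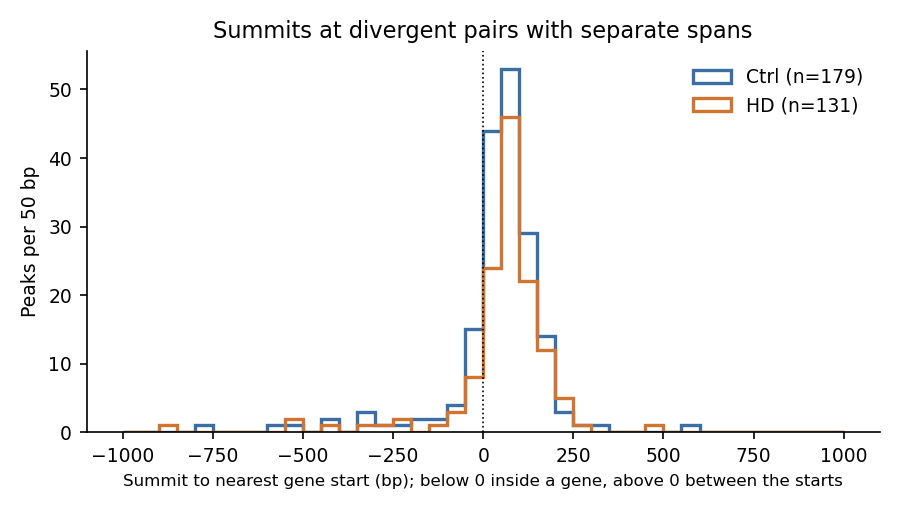
Distance of the summit from the nearest gene start (horizontal axis, bp) at divergent pairs with separate spans, as peaks per bin of 50 bp (vertical axis) for 179 Ctrl (blue) and 131 HD (orange) peaks. Values above 0 lie between the starts and values below 0 inside a gene; most summits of both lists lie just above 0.

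No difference was detected between gene-pair peaks and peaks at the end of 1 coding gene in how many were found again in the other list. Of 390 Ctrl gene-pair peaks, 183 (46.9%, 41.9 to 52.0) overlapped one in HD by 1 bp or more, against 656 of 1421 single-gene peaks (46.2%, 43.5 to 48.8) and 38.0% of all Ctrl peaks. The odds ratio between the first 2 shares was 1.03 (0.818 to 1.30), with p = 0.819 and an adjusted p of 0.890 by Fisher's exact test, two-sided. Of 287 HD gene-pair peaks, 182 (63.4%, 57.6 to 69.0) overlapped a Ctrl peak, against 659 of 1031 single-gene peaks (63.9%, 60.9 to 66.9) and 59.3% of all HD peaks (odds ratio 0.978, 0.740 to 1.30, Fisher's exact test, p = 0.890, adjusted p = 0.890 over both comparisons). A difference within these intervals was not detectable with these numbers of peaks. Peaks at no coding gene end were found in 28.1% (25.8 to 30.4) and 52.0% (48.5 to 55.5) of cases. Median widths of gene-pair and single-gene peaks were 269 and 266 bp in Ctrl and 271 bp for both in HD. Their median fold enrichments were 4.43 and 4.54 in Ctrl and 4.23 and 4.25 in HD. With both lists limited to their 2135 peaks of highest −log10 q, Ctrl held 278 gene-pair peaks and HD 287, and the shares found again were 53.2% (47.2 to 59.2) and 51.2% (45.3 to 57.1). Nearly the same number of peaks was found from either side, 183 and 182 in the full lists and 148 and 147 at equal lengths. The 2 shares therefore follow the numbers of gene-pair peaks in the lists, which came close together under the cut. Near-equal shares at equal lengths thus cannot show whether peaks were lost in HD. Peaks whose edge was 900 to 1000 bp from an end of the second gene, just inside the rule, numbered 12 in Ctrl and 13 in HD, of which 7 and 9 were found in the other list. Of those 1001 to 1100 bp away, just outside it, 4 of 12 and 5 of 8 were.

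**Figure D3:**
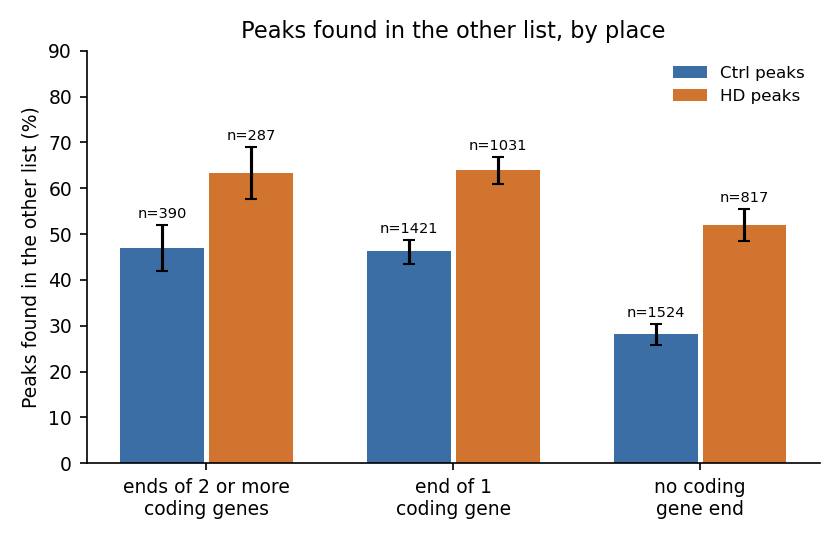
Share of peaks found in the other list (vertical axis, percent) for Ctrl (blue) and HD (orange) peaks, by place, with the number of peaks above each bar. Error bars are exact 95% binomial intervals; gene-pair peaks stand at 46.9% and 63.4%, and peaks at the end of 1 gene at 46.2% and 63.9%.

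Counted by locus, 184 of 496 (37.1%) were in both lists, 207 (41.7%) in Ctrl only and 105 (21.2%) in HD only. Over all peaks of any place, 2068 of 3335 in Ctrl and 869 of 2135 in HD had no partner. More Ctrl than HD peaks without a partner is thus also seen in the whole lists. At equal list lengths, 130 Ctrl and 140 HD gene-pair peaks had no partner in the other list. Near-equal numbers follow there from the equal lengths, so the excess of Ctrl-only loci in the full lists could not be judged from them. The divergent loci split into 114, 126 and 60, and the tandem loci into 19, 23 and 12. Ctrl divergent peaks were found in HD at 47.5% (41.0 to 54.0) and Ctrl tandem peaks at 43.9% (28.5 to 60.3), and the difference was not tested. A locus in 1 list is a missing call in the other, not a measured absence of signal, because fragments at uncalled sites were not used here. At 6 of the 207 Ctrl-only loci and 1 of the 105 HD-only loci, the other list had a peak at the same gene pair that did not overlap. By fold enrichment, the Ctrl members in the lowest tertile (fold 1.38 to 4.07) were found at 36.9% (28.6 to 45.8), those in the middle tertile at 49.2% (40.4 to 58.1) and those in the highest (fold 4.83 to 8.93) at 54.6% (45.7 to 63.4). For HD members the shares were 60.4%, 57.9% and 71.9% (61.8 to 80.6).

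Among the loci in both lists, the HD level was below the Ctrl level at most. Over the 183 Ctrl gene-pair peaks found in HD, the ratio of HD to Ctrl level had a median of 0.884 (quartiles 0.764 and 1.02), and 53 (29.0%) were above 1. Over all 1267 Ctrl peaks found in HD the median was 0.897 (0.780 and 1.02), with 28.2% above 1, so gene-pair peaks stood near the whole list. The summits of the lists were within 118 bp of each other at the 90th percentile of these peaks. The loci with the highest and lowest ratios were named after their values were seen. ADSS2/CATSPERE had 19 fragments in Ctrl and 41 in HD, a ratio of levels of 1.46 and the highest. Its Ctrl peak was weak, with a −log10 q of 1.91 where the lowest in the Ctrl list was 1.31. TIPIN/MAP2K1 had 29 and 58 fragments, a ratio of 1.36, which ZDHHC7/KIAA0513, POLR2I/TBCB and TMEM143/SYNGR4 shared with 19 or 20 fragments in Ctrl and 38 to 40 in HD. TIPIN protects stalled replication forks, and MAP2K1 encodes the kinase MEK1. The lowest ratio, 0.532, was at PSME2/RNF31, with 37 fragments in Ctrl and 29 in HD, but it compares different places. The Ctrl summit was 527 bp inside RNF31, and the HD summit lay between the starts, 117 bp from PSME2. At M6PR/KLRG1, with 35 and 28 fragments and a ratio of 0.543, the Ctrl summit was 91 bp from the start of M6PR and the HD summit 11 bp from that of KLRG1. PSME2 encodes a subunit of the proteasome activator PA28, and RNF31 the ubiquitin ligase HOIP. These ratios are between 1 list and another and have no replicate check.

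**Figure D4:**
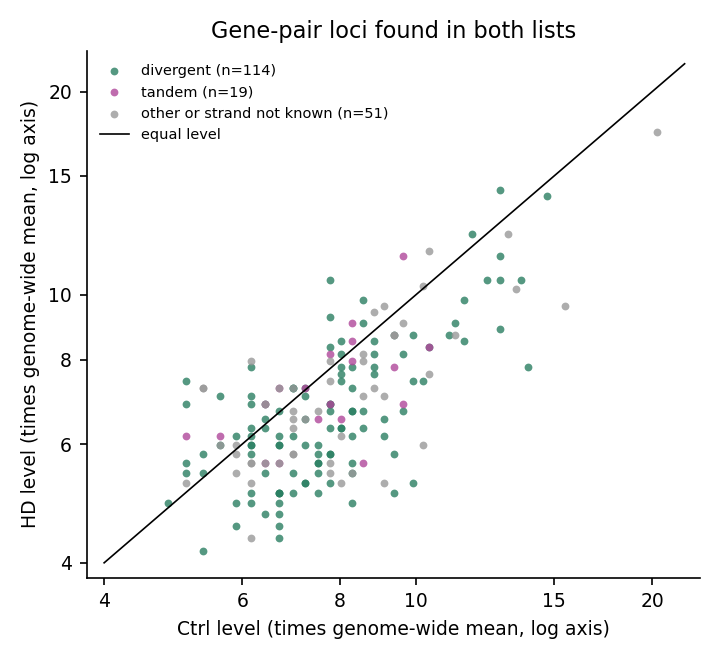
Level over the summit in Ctrl (horizontal log axis) and HD (vertical log axis), as times the genome-wide mean, for the 184 gene-pair loci in both lists, with divergent loci in green, tandem loci in purple and others in grey. The line marks equal levels; most points lie below it, and the highest, ATAD2/NTAQ1, stands at 20.3 in Ctrl and 17.4 in HD.

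By summed rank of −log10 q, the strongest gene-pair locus of both lists was ATAD2/NTAQ1 (chromosome 8, 123416270 to 123417178 in the Ctrl list). It held 76 fragments (59.9 to 95.1) in Ctrl and 96 (77.8 to 117) in HD, and the Ctrl summit lay in the stretch of 375 bp between the genes. The Ctrl fragments were 20.3 times the genome-wide mean, but 10.1 times the number expected from the local background. ATAD2 encodes a bromodomain ATPase, and NTAQ1 an amidase of N-terminal glutamine. CENPX/LRRC45 (chromosome 17, 82022836 to 82023306, Ctrl) followed, a divergent pair 427 bp apart, with 44 fragments in Ctrl and 68 (52.8 to 86.2) in HD. CENPX is a histone-fold protein of the centromere and of the Fanconi anemia pathway, and LRRC45 a linker protein of centrosomes. The levels there were 11.8 and 12.3 times the genome-wide mean, a ratio of HD to Ctrl of 1.05. RRP9/PARP3 (chromosome 3, 51941919 to 51942298, Ctrl), 459 bp apart, had 48 and 58 fragments and levels of 12.8 and 10.5. RRP9 belongs to the U3 snoRNP of ribosome assembly, and PARP3 is an ADP-ribosyltransferase of DNA break repair.

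MMS19/UBTD1, whose 129 bases between the starts are printed above, had 37 fragments in Ctrl and 48 in HD, counted at different places. The Ctrl summit was between the starts, 36 bp from that of MMS19, and the HD summit lay inside MMS19. The motif centre was 9 bp from the Ctrl summit and 89 bp from the HD summit. MMS19 takes part in the insertion of iron-sulfur clusters into DNA repair and replication enzymes. IFT20/TNFAIP1 had 43 and 47 fragments and levels of 11.5 and 8.53, with the Ctrl summit near the middle, 140 bp and 149 bp from the starts. IFT20 carries cargo into cilia. The remaining 3 of the 8 loci ranked highest, LOC114841035/FKBP2, ZNF250/LOC124902042 and EBAG9/EBAG9UORF, join a gene to a LOC or upstream reading-frame entry of the annotation that overlaps it. LOC114841035/FKBP2 had 36 fragments in Ctrl and 50 in HD, ZNF250/LOC124902042 had 49 and 68, and EBAG9/EBAG9UORF had 34 and 53.

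Among the 6 strongest Ctrl-only loci, 4 were divergent and the strands of the others were not known. NAT9/SLC38A12 (chromosome 17, 74776266 to 74776545), 154 bp apart, had 44 fragments (32 to 59.1) at a level of 11.8, and the nearest HD peak was 96.5 kb away. TBCCD1/DNAJB11 had 41 fragments, and DNAJB11 encodes a co-chaperone of the endoplasmic reticulum. PSMA2/MRPL32 had 36 fragments over the 202 bp between a gene of the proteasome core and a gene of the large mitochondrial ribosome subunit, with the nearest HD peak 20 kb away. DCUN1D3/LYRM1 and ODAD4/CNP had 35 fragments each. At KCTD9/CDCA2 there were 34, with the nearest HD peak 1852 kb away, and CDCA2 directs protein phosphatase 1 to mitotic chromatin. These 6 loci, chosen for the highest −log10 q, held 34 to 44 fragments. Over all Ctrl-only loci the median was 25 fragments and a level of 6.69. Loci found in both lists had Ctrl medians of 29 fragments and a level of 7.76.

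Of the loci in the HD list only, RPL36AL/MGAT2 (chromosome 14, 49620585 to 49620815) was the strongest, with 58 fragments (44 to 75) at a level of 10.5 and the nearest Ctrl peak 13.4 kb away. RPL36AL encodes a ribosomal protein, and MGAT2 a Golgi enzyme of N-glycan branching. IFRD2/HYAL3, a tandem pair 403 bp apart, had 53 fragments, and ADIRF/LOC124902474, also tandem, had 50. NPRL2/CYB561D2, with only 87 bp between the starts, had 45 fragments, and NPRL2 is a subunit of the GATOR1 complex that restrains mTORC1. ZBTB11/LOC124906262 had 43 and DRC10/TPCN1 had 37, and TPCN1 encodes a channel of endosomes. The levels of these 6 loci ran from 6.71 to 10.5 times the genome-wide mean, against a median of 5.81 for all HD-only loci. Relative to the number expected from the local background, their order differed. That ratio was highest at DRC10/TPCN1 (6.71) and lowest at IFRD2/HYAL3 (5.35), with 5.6 at RPL36AL/MGAT2.

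Of the 4 convergent loci, the 3 with the highest −log10 q are described. At ZBTB7B/DCST2, in both lists, the 3′ ends were 4 bp apart, but the Ctrl summit lay 989 bp inside ZBTB7B, a transcription factor of T cells. HSP90AB1/SLC35B2, in Ctrl only, had 144 fragments and a fold of only 1.64, with 87.4 expected from input on the same scale. HSP90AB1 encodes the constitutive HSP90. BMP6/TXNDC5, in HD only, had 54 fragments and a fold of 2.38. GAPDH/IFFO1, named after its values were seen, was like HSP90AB1, with 391 Ctrl fragments against 283 from input (fold 1.38) at a summit inside GAPDH. These 2 were the only members of the 677 whose input exceeded 5 times the genome-wide mean, and neither was found in HD.

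Some loci touched more than 2 coding genes, 24 of 496. The HD-only peak near the shared 3′ end of the gamma-protocadherins (27 fragments, fold 2.90) touched 23 genes at once, 22 of them protocadherins and the other DIAPH1, an actin-nucleating formin. HYAL3/NAA80, with HYAL1 as the other gene, had 58 fragments in Ctrl and 53 in HD, at levels of 15.5 and 9.62. NAA80 is the N-terminal acetyltransferase of actin. SPSB3/NUBP2 with EME2 had 32 and 44 fragments, and EME2 is a partner of the MUS81 nuclease.

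Over all coding genes, 777 of 19817 (3.92%) lay at a Ctrl gene-pair peak and 599 (3.02%) at an HD one. Genes of DNA repair were at such peaks for 8 of 69 in Ctrl and 9 in HD, and 6 were at one in both lists. VCP/FANCG, a tandem pair, had an HD peak of 44 fragments 117 bp from the start of VCP, and the Ctrl peak of 31 fragments there touched the window of VCP alone. FANCG is a subunit of the Fanconi anemia core complex. TP53BP1/MAP1A had 25 and 26, and TP53BP1 directs the choice of break repair pathway. PMS2/AIMP2 had 36 and 45 fragments, and PMS2 acts in mismatch repair. DESI1/XRCC6, in HD only with 36 fragments, holds the start of the gene for the break-end binding protein Ku70. Close coding neighbours are frequent in this list: 47 of its 69 genes (68.1%) had a coding end within 2 kb of their own, against 36.3% of all coding genes. This share was also higher, at 47.6% to 54.9%, in 6 of the lists below. These are replication and cell cycle, heat shock and chaperonin, respiratory chain, splicing and hnRNP, proteasome and aminoacyl-tRNA synthetase genes. Among genes with a close coding neighbour, 17% of DNA repair genes were at a Ctrl gene-pair peak and 19.1% at an HD one. For all coding genes with such a neighbour, the shares were 10.8% and 8.33%.

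Replication and cell cycle genes were at gene-pair peaks for 8 of 67 in Ctrl and 5 in HD, with 3 in both. Among those with a close coding neighbour, the shares were 25% in Ctrl and 15.6% in HD. PCNA/CDS2, the start of the sliding clamp gene, had 30 and 45 fragments, at nearly equal levels of 8.03 and 8.16. TK1/AFMID, the thymidine kinase of the S phase salvage pathway, had 33 and 45 fragments. NR1H2/POLD1, at the gene of the catalytic subunit of DNA polymerase delta, had 19 and 34. CDC45, a subunit of the replicative helicase, shared a Ctrl-only peak of 32 fragments with UFD1. Heat shock and chaperonin genes were marked at 5 of 30 in each list, 2 of them in both. Among those with a close coding neighbour, the share was 33.3% in each list. PSPH/CCT6A had 34 and 39 fragments, HSPD1/HSPE1, the mitochondrial chaperonin and its cofactor, had 33 in HD only, APTX/DNAJA1 had 34 in HD only and DNAJC7/NKIRAS2 had 28 in Ctrl only. Both Ctrl-only and HD-only peaks thus occurred among the heat shock genes.

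Respiratory chain genes were at gene-pair peaks for 8 of 82 in Ctrl and 3 in HD. Among those with a close coding neighbour, the shares were 17.8% in Ctrl and 6.67% in HD, against 10.8% and 8.33% of all coding genes with one. WDR4/NDUFV3, with a complex I subunit, had 35 and 48 fragments, and KIN/ATP5F1C, with the gamma subunit of ATP synthase, had 25 and 28. ATP5F1E/PRELID3B (32 fragments) and TOPORS/NDUFB6 (23 fragments) were in Ctrl only. TOPORS/NDUFB6 is a tandem pair, and its summit was nearer to TOPORS than to NDUFB6. Splicing and hnRNP genes were at 7 of 84 in Ctrl and 2 in HD, which were 17.5% and 5% of those with a close coding neighbour. GUCD1/SNRPD3, with a core Sm protein, had 48 and 49 fragments, and SRSF2/MFSD11 and LSM5/AVL9 had 35 and 27 in Ctrl only. Whether the Ctrl and HD counts of these lists differ was not tested.

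Mitochondrial ribosome genes, of which 52 of 77 have a close coding neighbour, were at a gene-pair peak for 2 in Ctrl (2.60%) and 1 in HD (1.30%), against 3.92% and 3.02% of all coding genes. Among genes with a close neighbour, the shares were 3.85% and 1.92%, against 10.8% and 8.33% of all coding genes with one. The genes were MRPL32 and MRPL18 in Ctrl and MRPL51 in HD, the last with 2 separate HD peaks of 40 and 39 fragments at its pair with NCAPD2, a condensin subunit. Replication-dependent histone genes, 53 of 70 with a close neighbour, were at 1 Ctrl peak of 17 fragments, H2AC19/H3C15, and at none in HD. Numbered zinc finger genes were at 13 of 510 in Ctrl (2.55%) and 8 in HD (1.57%), but only 135 of the 510 (26.5%) had a close coding neighbour. Among genes with such a neighbour, 9.63% of zinc finger genes were at a Ctrl gene-pair peak and 5.93% at an HD one. For all coding genes with one, these shares were 10.8% and 8.33%. Of these, ZNF318/LOC124901227 had 29 fragments in each list, SEPTIN1/ZNF48 had 25 and 31, and PTGR2/ZNF410 had 44 in Ctrl only. Proteasome genes were at 3 of 44 and 2 of 44, with HPD/PSMD9 in Ctrl only (22 fragments) and SORT1/PSMA5 in HD only (32). Among proteasome genes with a close neighbour, the shares were 13.6% in Ctrl and 9.09% in HD. SORT1/PSMA5 is a tandem pair with ends 1124 bp apart, and the summit was nearer to SORT1 than to PSMA5. Aminoacyl-tRNA synthetase genes were at 3 of 38 and 2 of 38, with YARS1/S100PBP (27 and 36 fragments) and EARS2/UBFD1 (19 and 30) in both lists. Among synthetase genes with a close neighbour, the shares were 15% in Ctrl and 10% in HD.

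Of 40 genes listed for known divergent pairs, 10 were at a gene-pair peak in each list and 8 in both. RECQL4/LRRC14, with a helicase of the RecQ family, had 33 and 40 fragments. NPAT/ATM had 24 and 30, and joins a histone gene activator to the DNA damage kinase ATM. PDCD10/SERPINI1 had 20 and 30 fragments. TCP1/MRPL18 had 26 in Ctrl only, and its printed stretch carries the motif in C. These pairs were chosen as close neighbours, so their share is not set against that of all genes.

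Motifs in the promoters were counted as a description, and differences between the shares were not tested. RefSeq windows of 250 bases before to 50 bases after a start were at hand for 856 of the 1004 coding genes at gene-pair peaks. The G4 motif, searched on both strands, was in 150 of 476 windows touched by a Ctrl gene-pair peak (31.5%, 27.4 to 35.9) and in 400 of 988 touched by a single-gene peak (40.5%, 37.4 to 43.6), against 30.0% of all 15811 coding windows. In HD these shares were 29.8% (25.1 to 34.8) of 356 and 41.3% (37.7 to 44.9) of 727. Genes of close divergent pairs held it in 27.1% of 2361 windows. CCGGAAG, the ETS-type core, was in 31.5% (27.4 to 35.9) of gene-pair and 18.2% (15.9 to 20.8) of single-gene windows in Ctrl, and in 25.8% and 18.7% in HD. It was in 25.2% of the windows of close divergent pairs and 14.1% of all windows. GGGCGG, the GC box, which can overlap the G4 motif, was in 83.8% and 88.1% in Ctrl and 88.8% and 87.3% in HD, against 58.3% of all windows. TATAAA was in 2.10% of gene-pair and 3.14% of single-gene windows in Ctrl, and in 2.53% and 2.06% in HD, against 9.75% of all. CCAAT was in 51.7% and 53.0% in Ctrl and 54.2% and 54.7% in HD, against 36.4% of all. The shares of these last 2 motifs were thus close in gene-pair and single-gene windows. In Ctrl gene-pair and single-gene windows, the NRF1-type motif was in 3.15% and 2.63%, the YY1-type motif in 3.99% and 1.62% and TGACGTCA in 3.57% and 3.85%, against 1.77%, 1.33% and 2.56% of all. All were searched on both strands. Windows of 1 pair can hold the same bases, so the intervals are too narrow, and a match is not a site.

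**Figure D5:**
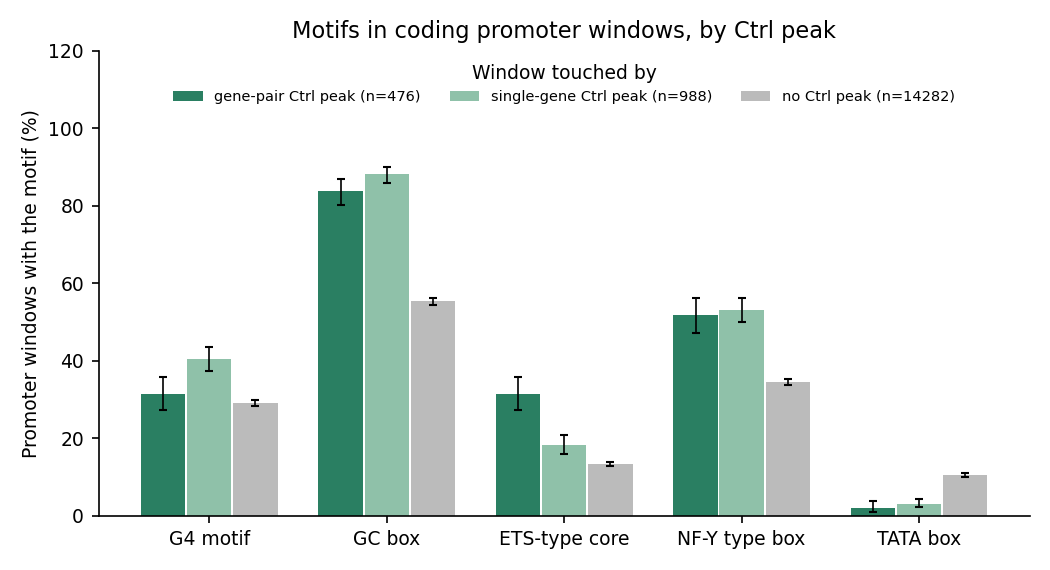
Share of coding promoter windows that hold each motif (vertical axis, percent) for windows touched by a gene-pair Ctrl peak (dark green), a single-gene Ctrl peak (light green) or no Ctrl peak (grey), with exact 95% binomial intervals. The G4 motif is in 31.5%, 40.5% and 29.1% of the 3 kinds of window, and the ETS-type core in 31.5%, 18.2% and 13.3%.

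Between the starts of divergent pairs, 188 different stretches could be read whole, and 50 of them (26.6%) held the G4 motif. The share was 23 of 70 stretches with peaks in both lists (32.9%), 19 of 79 in Ctrl only (24.1%) and 8 of 39 in HD only (20.5%), with median lengths of 239, 176 and 222 bp. Close divergent pairs without a gene-pair peak in either list held it in 98 of 524 stretches (18.7%), which were shorter, with a median of 142 bp. The motif was on 1 strand at 46 stretches and on both at 4. Of the 42 stretches with a motif and a Ctrl peak, 35 had a whole motif inside that peak, and for HD these numbers were 25 of 31. The nearest motif centre was a median of 47.2 bp from the Ctrl summit and 60.5 bp from the HD summit. The median GC content of the stretches was 67.6% at marked pairs and 65.9% at unmarked ones. Most of the 188 stretches thus held no match to this motif, as at TK1/AFMID and HSPD1/HSPE1 above. A stretch is not all of the DNA under a peak, and at these 2 loci the Ctrl summit lay inside TK1 and the HD summit inside HSPD1.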

How the data were processed

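BG4 ChIP-seq of U2OS cells, with input, was analysed as 1 peak list for each condition; the labels of both its ChIP libraries name that list. Per the labels' protocols, cells were fixed for 10 min in 1% formaldehyde. Per the submitters' processing notes, hg38 was the build and the tools were MACS2 2.2.7.1, Bowtie2 2.5.0, FastQC 0.11.9 and SAMtools. The sources used here do not state tool settings, the handling of duplicates or any pooling. The authors deposited, for each peak, a score, a fold enrichment over the local background (a ratio), −log10 p and −log10 q values, and a summit offset. These were used only to describe, rank or filter peaks within a list. The lowest deposited −log10 q was 1.31 in Ctrl and 1.30 in HD.

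Fragments over each summit were recovered from fold, which MACS2 computes as (pileup + 1) / (expectation + 1), and from p, the Poisson tail of a whole number of fragments times a scale (0.927 in Ctrl, 0.715 in HD). A whole number matched within 0.01 for all 390 Ctrl and 287 HD members, and for 11 and 4 members several numbers matched, and the best match was used. Peaks on other sequences were left out (131 in Ctrl, 97 in HD), as were 41 and 37 in the chromosome 21 interval. Gene spans came from a RefSeq table of GRCh38.p14 (19817 placed coding genes), and strand from RefSeq promoter sequences, for 15811 of them. For a peak with several genes, the pair was the 2 genes whose touched ends lay nearest the summit. Fisher's exact tests and intervals used SciPy 1.17.1 and the logistic fit statsmodels 0.14.6 (Python 3.11.15); the steps were tested on simulated data. The test of orientation used the strand-known pairs.

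The genes named were the 8 loci found in both lists whose −log10 q ranks gave the best sum, the 6 Ctrl-only and 6 HD-only loci with the highest −log10 q, the 3 convergent loci with the highest, the 3 touching most genes, and up to 4 loci for each of 11 gene lists, families being matched by symbol prefix. Some loci that this rule names are not reported here. Members and lists were chosen with earlier results of these data known. Alternatives were another q threshold, window, summit-only assignment, list length, gene set, overlap and a fit with width and fold.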

Additional observations from a re-analysis of the deposited data

How the results depend on the processing

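Each list's count of gene-pair peaks stayed within 1.5 times the main count, and the 4 differences between divergent and other pairs kept their direction and their side of the threshold, under −log10 q of at least 3, summits only, windows of 500 bp, 2135 peaks from each list, no LOC or readthrough genes, and no gamma-protocadherin genes, the last chosen after seeing the data. The difference between gene-pair and single-gene peaks in the share found again passed no test under 8 alternatives, and its sign was not stable. In Ctrl it was 0.758 percentage points, and −0.505 at −log10 q of at least 3, −1.13 when peaks had to overlap by 50% of each, and −0.219 with summits only. In HD it was −0.504 points, and 1.99 with windows of 500 bp and 0.499 without LOC and readthrough genes. With log2 width and log2 fold as terms, the odds ratio was 1.02 in Ctrl and 0.966 in HD. No paired analysis was possible because the files analysed hold 1 peak list per condition and no value per library, and for the same reason no library could be left out in turn. The fewest fragments at a called member were 15 in Ctrl and 22 in HD, which are levels of 4.01 and 3.99 times the genome-wide mean.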
